A study of Mus musculus with 6 samples.

Results

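The 9 diacylglycerol kinase genes Dgka, Dgkb, Dgkd, Dgke, Dgkg, Dgkh, Dgki, Dgkq and Dgkz were examined for H3K4me3 at their promoters. H3K4me3, histone H3 carrying 3 methyl groups on its lysine 4, is a mark found at the starts of genes with active or accessible promoters. A peak was assigned to a gene when it lay within 1 kb of any of the gene's transcript starts in GENCODE release M21. The 9 genes have 64 annotated transcripts. Starts of 1 gene at most 500 bp apart were joined into a start group, numbered from the 5′ end of the gene, so that alternative promoters could be followed apart, and this gave 40 start groups of 52530 over all 21911 protein-coding genes. Of 227418 peaks in 6 lists, 59 were assigned to these genes.

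Diacylglycerol is a membrane lipid that is released when phospholipase C cuts phosphoinositides, and it recruits protein kinase C and other proteins with a C1 domain. Diacylglycerol kinases end that signal by adding a phosphate to diacylglycerol, which gives phosphatidic acid, itself a signalling lipid and a precursor of other phospholipids. The family is sorted by the domains beside a shared catalytic domain. Dgka, Dgkb and Dgkg encode forms with calcium-binding EF hands, Dgkd and Dgkh forms with a pleckstrin homology domain, Dgkz and Dgki forms with ankyrin repeats and a nuclear localisation region, Dgke a form that prefers diacylglycerol carrying arachidonic acid, and Dgkq a form with an extra cysteine-rich domain. Several members, among them Dgkb, are abundant in the adult striatum.

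The 6 lists, 1 per condition, came from ChIP-Seq on STHdh cells, conditionally immortalised progenitor cells of the mouse striatum with the strain label C57BL/6. Q7SST is the wild-type line STHdhQ7 with vehicle, and Q111SST is the line STHdhQ111, a homozygous knock-in of mutant huntingtin, with vehicle. The other 4 lists came from STHdhQ111 cells given 10 uM cyproheptadine (an antihistamine), loxapine (an antipsychotic), diacylglycerol kinase inhibitor II (DKI) or meclizine (an antihistamine), and all 6 conditions were kept without serum for 24 hours. Each genotype is 1 purchased female line, so the line and its genotype cannot be told apart, and DKI is named for the enzymes that the 9 genes encode. Chromatin was fragmented with micrococcal nuclease before precipitation.

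No condition had a second list. Differences below are therefore differences between 1 list and another, with no replicate spread and no test. Lists held from 30758 peaks (DKI) to 45564 (loxapine), and the reads behind each list are unknown. The deposited score of a peak, from 10 upwards in every list, has no stated scale, so it was turned into a strength percentile, the percentage of peaks in the same list with a lower score (ties counted at their middle). A score belongs to a peak and is not summed over a gene, so gene length does not enter it. Of 8 neural progenitor genes, between 4 (cyproheptadine) and 7 (Q7SST) were marked, Vim, Dlx1 and Dlx2 in all 6 lists. Of 8 genes of mature striatal neurons, 6 were marked in Q7SST, 4 in Q111SST and meclizine, 3 in loxapine and 1 in cyproheptadine and DKI, with Drd1 and Drd2 in none. The other marker lists (astrocyte, oligodendrocyte, microglia and endothelium, 4 genes each) had at most 3 marked genes in any list, the 3 being astrocyte genes in Q111SST, loxapine and meclizine.

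Sequence upstream of 6 starts is shown because the results turn on how the mark sits around them. Dgkb, Dgkg and Dgki are the members with no assigned peak in mutant cells, Dgkd and Dgkh are the members whose start fell in a gap between a pair of peaks in some lists, and Dgkz is a member whose peak ended 286 to 457 bp short of the start in 3 lists. Each is the 200 bases before the 5′-most start of the group on GRCm38, read 5′ to 3′ on the strand of the gene, and capitals mark the GC box GGGCGG on either strand (CCGCCC on the strand shown). The TATA motif TATAAA was searched on both strands too and was not present in any of the 6. Adjacent GC boxes can share a base, and the 2 motifs cannot overlap.
Dgkb, chr12:37879974-37880173, plus strand: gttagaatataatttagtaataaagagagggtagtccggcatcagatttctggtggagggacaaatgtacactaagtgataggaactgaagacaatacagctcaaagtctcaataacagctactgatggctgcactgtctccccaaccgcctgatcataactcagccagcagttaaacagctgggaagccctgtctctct
Dgkg, chr16:22657222-22657421, minus strand: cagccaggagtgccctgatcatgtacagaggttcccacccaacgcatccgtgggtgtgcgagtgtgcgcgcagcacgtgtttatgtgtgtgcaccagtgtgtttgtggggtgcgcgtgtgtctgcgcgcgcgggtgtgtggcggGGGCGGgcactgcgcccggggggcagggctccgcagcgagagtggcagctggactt
Dgki, chr6:37300185-37300384, minus strand: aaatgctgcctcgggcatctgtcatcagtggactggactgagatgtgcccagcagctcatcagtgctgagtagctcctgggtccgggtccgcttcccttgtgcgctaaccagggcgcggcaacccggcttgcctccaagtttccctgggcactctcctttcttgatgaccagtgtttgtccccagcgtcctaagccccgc
Dgkd, chr1:87853087-87853286, plus strand: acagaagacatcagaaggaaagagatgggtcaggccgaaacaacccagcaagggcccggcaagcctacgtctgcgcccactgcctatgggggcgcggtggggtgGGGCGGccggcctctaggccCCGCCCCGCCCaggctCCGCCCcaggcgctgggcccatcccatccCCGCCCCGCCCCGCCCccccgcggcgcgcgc
Dgkh, chr14:78732777-78732976, minus strand: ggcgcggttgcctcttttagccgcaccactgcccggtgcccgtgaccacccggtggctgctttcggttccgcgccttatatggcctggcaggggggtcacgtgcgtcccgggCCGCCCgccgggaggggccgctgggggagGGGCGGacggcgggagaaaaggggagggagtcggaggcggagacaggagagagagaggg
Dgkz, chr2:91963658-91963857, minus strand: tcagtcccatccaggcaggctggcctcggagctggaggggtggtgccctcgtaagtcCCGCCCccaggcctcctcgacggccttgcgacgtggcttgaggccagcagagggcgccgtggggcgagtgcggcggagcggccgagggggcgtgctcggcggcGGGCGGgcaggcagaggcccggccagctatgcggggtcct

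These 6 stretches differed widely in base composition. The Dgkb stretch had 44.5% GC and 2 CpG, the Dgki stretch 60.5% and 9, and the Dgkg stretch 67.0% and 18. The Dgkh stretch had 72.5% GC and 21 CpG, the Dgkd stretch 75.0% and 20, and the Dgkz stretch 75.5% and 21. The Dgkd stretch held 7 GC boxes, Dgkh and Dgkz 2 each, Dgkg 1 and Dgkb and Dgki 0.

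Of the 9 genes, 6 were marked in every list, namely Dgka, Dgkd, Dgke, Dgkh, Dgkq and Dgkz. Dgkb and Dgki were marked in Q7SST and in no list from mutant cells, and Dgkg was marked in none. Of all protein-coding genes, 53.5% were marked in all 6 lists, 2.78% in Q7SST only, 37.0% in none and 6.74% in some other pattern, which no member had. The Q7SST list marked 8 of 9 members, with 59.9% of all protein-coding genes marked. The other 5 lists marked 6 of 9 each, with backgrounds of 58.4% in Q111SST, 55.4% in cyproheptadine, 58.1% in loxapine, 55.8% in DKI and 58.6% in meclizine. When each list was cut to its strongest 30758 peaks, Q7SST marked 5 of 9, without Dgka, Dgkb and Dgki, and the other lists still 6, while over all genes Q7SST marked 58.1% and the other lists 54.8% to 56.9%. The 4 compound lists marked the same 6 genes as Q111SST. With a peak over the start required, only Dgke, Dgkh and Dgkq were marked in every list, where a list marked 45.4% to 53.0% of all protein-coding genes. Cyproheptadine, DKI and meclizine then differed from Q111SST in the genes marked.

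Counted by start group, the marked share was smaller, since most of the alternative starts within these genes had no peak. Q7SST marked 12 of 40 start groups (33.8% of all start groups), and Q111SST marked 9 (33.1%). The counts were 8 in cyproheptadine (30.6%), 9 in loxapine (33.1%), 8 in DKI (30.6%) and 9 in meclizine (33.0%). In all 6 lists the members' share lay below that of all genes. The 8 start groups marked in every list were 1 each of Dgka, Dgkd, Dgke and Dgkz and 2 each of Dgkh and Dgkq.

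The 5 comparisons with Q111SST share that list. Of the 31 member start groups without a mark in Q111SST, 3 were marked in Q7SST (Dgkb group 2, Dgki group 1 and Dgkz group 4), against 4.20% over all genes. No start group was gained with cyproheptadine (background 0.544%), loxapine (1.65%), DKI (0.390%) or meclizine (1.29%). Of the 9 marked in Q111SST, Dgkd group 2 had no mark with cyproheptadine (background 8.89%) or DKI (8.51%), and none was lost in Q7SST (6.63%), loxapine (3.50%) or meclizine (3.15%). Cyproheptadine and DKI were also the shortest lists. With equal list sizes 1 start group was still lost in cyproheptadine (background 5.77%) and in DKI (5.05%), and 1 each in loxapine (5.10%) and Q7SST (6.10%). All 3 gains in Q7SST were weak peaks, as given for each gene below, and none remained when the lists were cut to this equal size or to scores at or above the pooled median of 47.

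**Figure D1:**
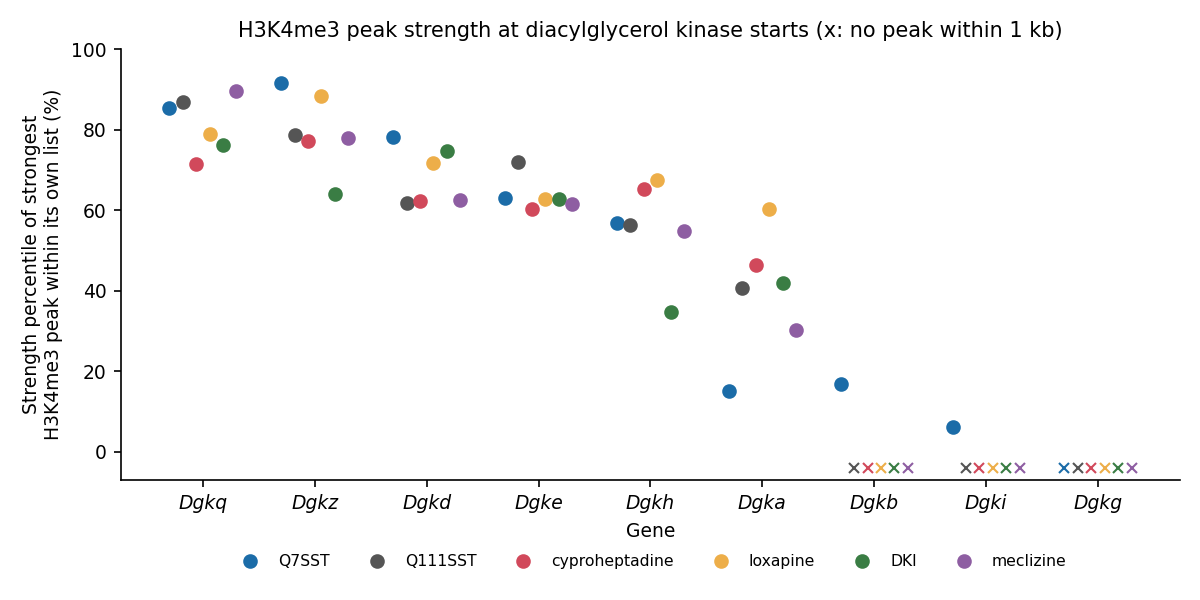
Strength percentile (% of peaks of the same list with a lower score, y axis) of the strongest peak assigned to each of the 9 genes (x axis), 1 point per peak list, coloured by list. Crosses below 0 are lists with no peak within 1 kb of any start. Dgkq and Dgkz have the highest medians, though Dgkd (74.8) stands above Dgkz (64.1) in DKI, Dgka spreads most (15.1 to 60.2), and Dgkb and Dgki have 1 low point each, in Q7SST.

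In order of the median over the 6 lists, strength percentiles were 82.2 for Dgkq, 78.3 for Dgkz, 67.2 for Dgkd, 62.7 for Dgke, 56.5 for Dgkh and 41.3 for Dgka. Each gene's range over the lists overlapped that of the next gene in this order, so neighbours were not set apart by the spread between lists. The median strongest peak of all marked protein-coding genes stood between 76.3 (DKI) and 83.0 (loxapine). Dgka, Dgkd, Dgke and Dgkh were below this median of marked genes in all 6 lists, and Dgkz was below it in Q111SST, cyproheptadine, DKI and meclizine. Dgkq was below it in cyproheptadine (71.5 against 79.5) and loxapine (79.0 against 83.0), level with it in DKI (76.3) and above it in the other lists. A percentile also depends on how many weak peaks its list holds, and with equal list sizes values of the longer lists fell while those of DKI, the shortest list, stayed as they were.

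In the calcium-binding group, Dgka was marked in all 6 lists, Dgkb in Q7SST and Dgkg in none. Dgka encodes the form best known from T lymphocytes. It was marked at 1 of 3 start groups, that of Dgka-201 (chr10:128744075, minus strand), and no list had a peak over that start. The peak began downstream of it, between 230 bp (meclizine) and 450 bp (DKI) into the gene, and lay in an intron except for 50 bp of exon in meclizine. Scores were 23 in Q7SST, 34 in Q111SST, 37 in cyproheptadine, 59 in loxapine, 38 in DKI and 33 in meclizine. In percentiles these were 15.1, 40.6, 46.5, 60.2, 41.9 and 30.3, a range of 45.1 points and the widest of the 9 genes. Q7SST was lowest and loxapine highest.

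Against Q111SST, the Dgka percentile was 25.6 points lower in Q7SST (difference -25.6), and 2.10% of the 12335 protein-coding genes marked in both lists had a lower difference. The loxapine difference was 19.5 points, with 98.3% of 12519 genes lower. Both values lay outside the span from the 10th to the 90th percentile of all genes, which ran from -11.8 to 8.99 for Q7SST and from -9.69 to 8.23 for loxapine. The differences of 5.91 points in cyproheptadine (span -18.1 to 4.85) and -10.4 in meclizine (span -9.99 to 5.29) lay just outside theirs, and that of 1.28 in DKI (span -23.5 to 4.03) inside. With equal list sizes Dgka had no mark in Q7SST and stood at 22.0 in Q111SST, 41.4 in cyproheptadine, 41.0 in loxapine, 41.9 in DKI and 12.5 in meclizine, so loxapine was then no longer highest. The differences from Q111SST were then 19.4 points in cyproheptadine, 19.0 in loxapine, 19.9 in DKI and -9.48 in meclizine. The Dgka peak was also wider in the vehicle lists (1419 bp in Q7SST and 1297 bp in Q111SST) than with any compound (585 to 829 bp).

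Dgkb encodes a form that is abundant in neurons of the adult striatum. Of its 4 start groups, group 2 (5 transcripts, first start chr12:37880174, plus strand) had a peak in Q7SST. The peak, chr12:37880924-37881509, was 586 bp wide, lay 208 bp downstream of the nearest start, and held 31 bp of non-coding exon and 555 bp of intron. Its score was 24, at percentile 16.9. In the 5 lists from mutant cells the nearest peak to any Dgkb start was at least 538031 bp away. That is, the gene stood in a long stretch without a peak in the mutant lists, and the mark in Q7SST was a weak one beside the start.

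Dgkg has 1 start group (5 transcripts, first start chr16:22657221, minus strand), and no list had a peak within 1 kb of it. The nearest peak was 3771 bp away in Q7SST and 3755 bp in meclizine, and at least 67824 bp away in the other 4 lists. Inside the gene, 112 kb downstream of the start, an intronic region (chr16:22544852-22545407) had peaks in 3 lists. Its score was 80 in Q7SST (percentile 67.7), 44 in loxapine (48.6) and 14 in meclizine (1.57). A further intronic peak in Q7SST (score 29, percentile 25.2), 109 kb downstream, lay within 1 kb of a start of another gene, Gm15651. Dgkg thus had marks inside the gene and none at its annotated start.

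The pleckstrin homology group, Dgkd and Dgkh, had wide marks over GC-rich starts. Dgkd group 1 (Dgkd-201, chr1:87853287, plus strand) was covered by 1 peak in Q7SST, Q111SST, loxapine and meclizine, 1957 to 2170 bp wide. Scores in those lists were 107 in Q7SST, 60 in Q111SST, 80 in loxapine and 75 in meclizine, at percentiles 78.3, 61.9, 71.7 and 62.6. In cyproheptadine and DKI the same span held a pair of peaks with a gap over the start. The cyproheptadine pair, 220 and 941 bp wide with scores 55 and 45, was 801 bp apart, and the DKI pair, 229 and 790 bp wide with scores 82 and 54, was 895 bp apart.

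Dgkd strength in those 2 lists, at percentile 62.4 in cyproheptadine and 74.8 in DKI, therefore came from the short upstream peak. Against Q111SST the difference was 16.4 points in Q7SST, 9.82 in loxapine and 12.9 in DKI, with 95.2%, 92.6% and 97.8% of all genes marked in both lists lower. It was 0.472 in cyproheptadine and 0.679 in meclizine. After cutting to equal size the differences were 23.0 in Q7SST, 8.79 in cyproheptadine, 8.16 in loxapine, 24.9 in DKI and 3.12 in meclizine. At both settings Q7SST, loxapine and DKI lay above the 90th percentile of all genes in their lists, and cyproheptadine and meclizine did not.

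Further downstream in Dgkd, group 2 (the non-coding transcript Dgkd-206, chr1:87880435) had an intronic peak upstream of its start in 4 lists. Scores were 31 in Q7SST, 30 in Q111SST, 37 in loxapine and 37 in meclizine, at percentiles 28.3, 35.4, 41.7 and 34.8. In Q7SST this peak was 233 bp wide, against 695 to 719 bp in the other 3. The other 5 start groups of Dgkd had no mark in any list. The antisense gene Gm19582 starts 1012 bp inside Dgkd on the other strand, and its start was covered by a peak in all 6 lists, so the downstream part of the Dgkd mark is shared between the genes.

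Dgkh was marked at both of its 5′ start groups in all 6 lists. Group 1 (Dgkh-202, chr14:78732776, minus strand) was covered by 1 peak of 2214 to 2594 bp in 4 lists, with scores 59 in Q7SST, 51 in Q111SST, 32 in DKI and 61 in meclizine. In cyproheptadine a pair of peaks (652 and 228 bp wide, scores 39 and 59) left a gap of 1040 bp over the start, and in loxapine a pair (899 and 790 bp, scores 71 and 33) left a gap of 793 bp. By its strongest peak, the gene stood at percentile 56.7 in Q7SST, 56.2 in Q111SST, 65.2 in cyproheptadine, 67.4 in loxapine, 34.8 in DKI and 54.9 in meclizine. DKI was lowest. The difference from Q111SST was 8.92 points in cyproheptadine (95.6% of all genes lower) and 11.1 in loxapine (94.3%), both above the 90th percentile of all genes (4.85 and 8.23). In these 2 lists the value came from 1 peak of a pair. It was 0.476 in Q7SST and -1.36 in meclizine. These 4 differences became 19.3 (cyproheptadine, 97.3% lower), 9.18 (loxapine), 3.46 (Q7SST) and 0.902 (meclizine) with equal list sizes. In DKI it was -21.4 points, inside the span of all genes for that list (-23.5 to 4.03), where the median of all genes was -6.57. With equal list sizes Dgkh stood at 42.5 in Q111SST and 34.8 in DKI, a smaller difference. With a peak over the start required, the gene stood at 25.6 in cyproheptadine and 15.9 in loxapine, through group 2, and at 56.2 in Q111SST. By that rule these 2 lists were thus lower than Q111SST and not higher.

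Dgkh group 2 (Dgkh-201, chr14:78725089) encodes a second protein-coding form and had a narrow peak over its start, 657 to 990 bp wide. Scores were 30, 34, 22, 19, 25 and 47 in Q7SST, Q111SST, cyproheptadine, loxapine, DKI and meclizine, at percentiles 26.8, 40.6, 25.6, 15.9, 25.0 and 44.7. Loxapine, highest at group 1, was lowest at group 2, and meclizine was highest at group 2. In 6 of 6 lists group 2 stood lower than group 1.

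**Figure D2:**
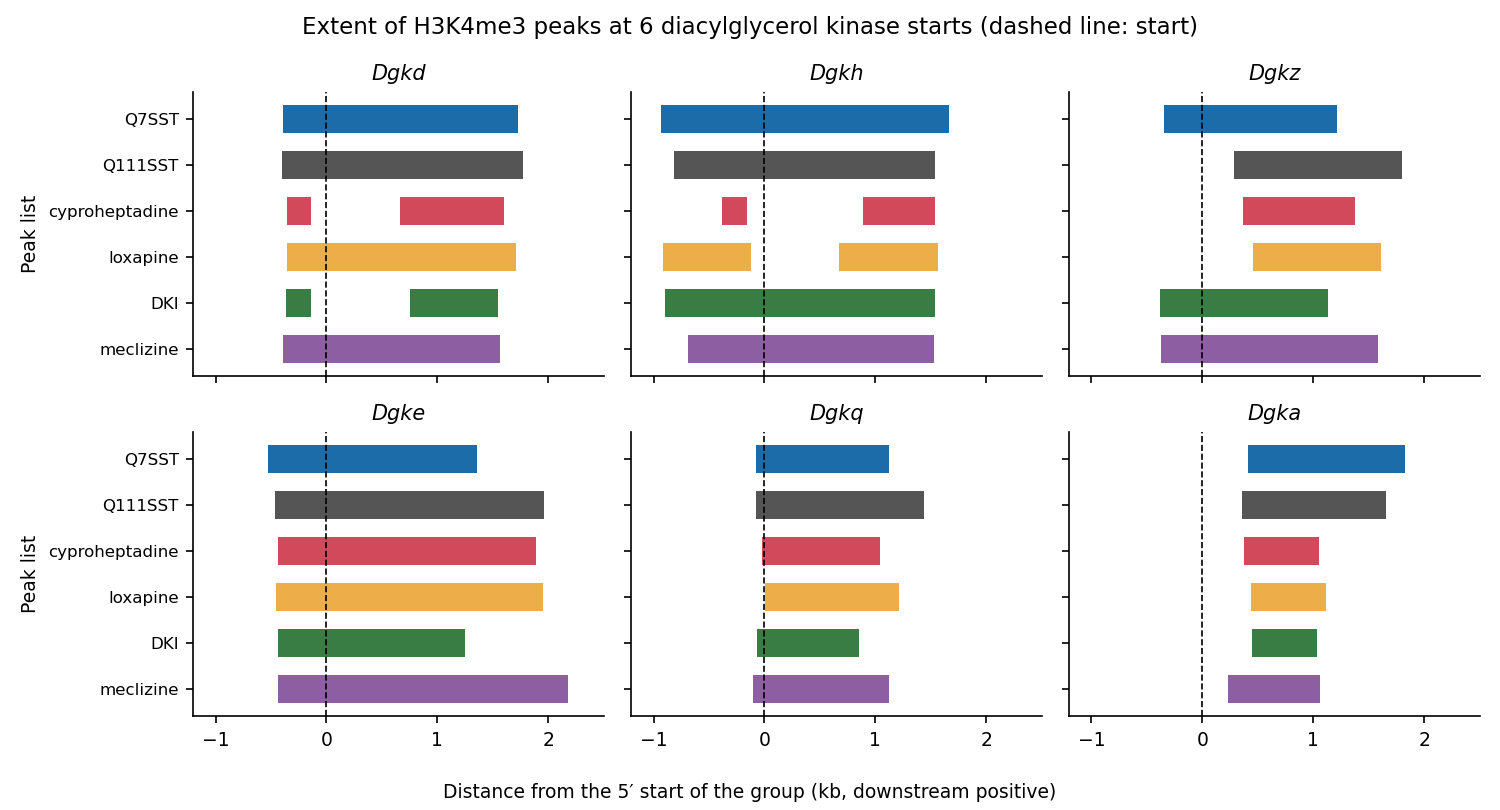
Extent of the assigned H3K4me3 peaks at 1 start group of each of 6 genes, 1 row per peak list. The x axis is the distance in kb from the 5′ start of the group, with downstream positive and the start at the dashed line. Dgkd in cyproheptadine and DKI and Dgkh in cyproheptadine and loxapine have a gap over the start, the Dgkz peak ends downstream of it in 3 lists, and the Dgka peak lies downstream of it in all 6.

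Sequence in the gaps was richer in GC than the peaks at their sides. The Dgkd gap had 76.5% GC in cyproheptadine and 75.0% in DKI, against 46.4% to 50.2% in the peaks at its sides. The Dgkh gap had 75.0% GC in cyproheptadine and 75.7% in loxapine, against 50.5% to 66.7% at its sides. Such gaps were not particular to these genes. Over all marked start groups, 3.72% in Q7SST, 3.94% in Q111SST, 5.84% in cyproheptadine, 5.70% in loxapine, 5.24% in DKI and 3.14% in meclizine lay in a gap of this kind, with a median GC of 71.9% to 73.6% in the gap and 46.4% to 48.6% at its sides. Whether base composition or the nuclease digestion has a part in these gaps was not tested.

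The ankyrin-repeat group, Dgkz and Dgki, differed in their promoter marks, with the second-highest median of the family at Dgkz and the lowest single value at Dgki. Dgkz was marked at group 3 (Dgkz-201, chr2:91963657, minus strand) in all 6 lists. Scores were 154 in Q7SST, 99 in Q111SST, 79 in cyproheptadine, 129 in loxapine, 64 in DKI and 114 in meclizine, at percentiles 91.5, 78.6, 77.1, 88.3, 64.1 and 77.9. Q7SST and loxapine were highest and DKI lowest. Against Q111SST the difference was 12.8 points in Q7SST (93.6% of genes lower), 9.62 in loxapine (92.3%), -14.5 in DKI (26.2%), -1.59 in cyproheptadine and -0.732 in meclizine. The last 2 turned to 2.90 and 0.353 with equal list sizes.

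The upstream edge of the Dgkz peak took 1 of 2 places. In Q7SST, DKI and meclizine the peak ran over the start and reached 344, 384 and 371 bp upstream of it. In Q111SST, cyproheptadine and loxapine it ended 286, 369 and 457 bp downstream of the start, inside the gene. Within their own lists, the loxapine peak, which fell short, stood at percentile 88.3 and the DKI peak, which did not, at 64.1. Whether the edge goes with strength was not tested. The 630 bp between the longest short peak and the shortest long one (chr2:91963372-91964001) had 72.2% GC, against 51.0% in the 676 bp covered in all 6 lists. By the stricter rule of a peak over the start, Dgkz group 3 was thus marked in Q7SST, DKI and meclizine and not in Q111SST. Over all genes, the share of start groups gained by that rule was 3.59% in Q7SST, 0.625% in DKI and 1.88% in meclizine.

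Not every mark lay over a start. The number of marked member start groups with no peak over any start was 3 of 12 in Q7SST (background 22.7%), 3 of 9 in Q111SST (23.3%), 4 of 8 in cyproheptadine (28.8%), 5 of 9 in loxapine (28.1%), 2 of 8 in DKI (26.3%) and 2 of 9 in meclizine (22.0%). The members' share was above the background in Q111SST, cyproheptadine and loxapine and near it in the other 3 lists. Those in loxapine were Dgka, Dgkd group 2, Dgkh group 1, Dgkq group 2 and Dgkz. At Dgkq group 2 the loxapine peak ended 1 bp from the start.

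Dgkz has 9 start groups, more than any other member, and only groups 3 and 4 had a mark in any list. Group 4 (Dgkz-211 and Dgkz-203, first start chr2:91950427) had a peak in Q7SST, 730 bp wide and over the starts, with score 20 and percentile 9.57. It held 207 bp of non-coding exon and 523 bp of intron.

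Dgki has 3 start groups and is 454 kb long. Group 1 (6 transcripts, first start chr6:37300184, minus strand) had a peak in Q7SST of 197 bp (chr6:37299586-37299782), all of it in coding exon and over the innermost 2 starts of the group (chr6:37299637 and chr6:37299744). Its score was 18 and its percentile 6.14, the lowest of any member's strongest peak. In the 5 mutant lists the nearest peak was 3314 to 3751 bp from a Dgki start. Within 5 kb Dgki therefore counted as marked in all 6 lists, in the mutant lists through a peak near start group 3 and not at the 5′ end.

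Away from its starts, Dgki held 8 peaks in Q7SST, Q111SST, loxapine and meclizine, 6 in DKI and 4 in cyproheptadine. It is a long gene, and per 100 kb these were 0.881 to 1.76 peaks. Between 50.4% and 68.0% of 2490 protein-coding genes of at least 100 kb had a lower density in the same list, so the number was not unusual for a gene of this length. Of 23 regions inside the 9 genes and more than 1 kb from any of their starts, 11 lay in Dgki, and 4 of these were found in all 6 lists, as was no region in another member. The region 424 kb downstream of the 5′ start (chr6:36875805-36877041) had scores 123 in Q7SST, 78 in Q111SST, 78 in cyproheptadine, 104 in loxapine, 36 in DKI and 91 in meclizine. Those scores stood at percentiles 83.5, 70.7, 76.5, 81.1, 39.7 and 69.5. In Q7SST, the list with a promoter peak, this intronic region stood at 83.5 and the promoter at 6.14. Of the 11 regions, 10 lay wholly in introns, and 1 of 667 bp held 75 bp of coding exon.

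That last region, 203 kb downstream (chr6:37097095-37097761), was the one where Q7SST and cyproheptadine had no peak and the other mutant lists did. Scores were 37 in Q111SST, 79 in loxapine, 91 in DKI and 102 in meclizine, at percentiles 44.1, 71.3, 79.2 and 73.7. DKI, whose other Dgki regions were among the weakest, stood highest here. A pair of regions 74.6 and 83.8 kb downstream were present in Q7SST, Q111SST, loxapine and meclizine and absent in cyproheptadine, with DKI holding the second alone at percentile 5.96. Near 1 of the 11 regions, 343 kb downstream, another gene starts (Gm7452).

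**Figure D3:**
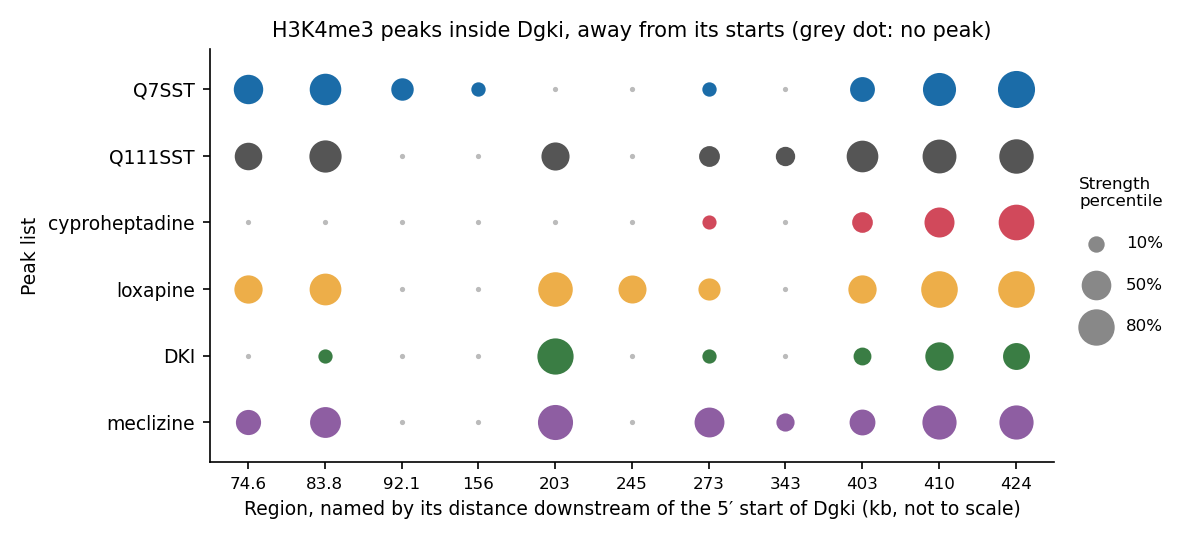
H3K4me3 peaks inside Dgki and more than 1 kb from its starts. Each column is 1 of 11 regions, in order of distance from the 5′ start (kb, spacing not to scale), each row is a peak list, circle area grows with the strength percentile, and a grey dot means no peak. The regions at 273, 403, 410 and 424 kb have a circle in all 6 rows, and that at 203 kb has none in Q7SST and cyproheptadine.

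Over all 9 genes there were 15 such peaks in Q7SST, 12 in Q111SST, 5 in cyproheptadine, 12 in loxapine, 7 in DKI and 11 in meclizine, fewest in the shortest lists. Dgkz had 4 in Q7SST, 1 in Q111SST and 1 in meclizine, all intronic and at or below percentile 20.4. Dgkd had 2 in Q111SST and 1 in loxapine, Dgkb 1 in Q7SST and Dgkh 1 in loxapine (255 bp, wholly in non-coding exon). Dgka and Dgkq had none.

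Dgke encodes the form with a preference for arachidonoyl diacylglycerol. Its percentile ranged over 11.8 points, and over 18.5 points with equal list sizes. Group 2 (Dgke-201 and Dgke-203, chr11:89060748, minus strand) was covered by a peak of 1682 bp (DKI) to 2620 bp (meclizine). Scores were 70 in Q7SST, 81 in Q111SST, 52 in cyproheptadine, 63 in loxapine, 62 in DKI and 73 in meclizine, at percentiles 63.0, 72.0, 60.2, 62.7, 62.7 and 61.5. Q111SST stood above the other 5 lists, which lay within 3 points of each other. The differences from Q111SST were -8.96 (Q7SST), -11.8 (cyproheptadine), -9.29 (loxapine), -9.25 (DKI) and -10.4 points (meclizine), and since they share 1 list they are not separate observations. The first 4 lay inside the 10th to 90th percentile span of all genes, and meclizine just below its 10th percentile of -9.99. After cutting to equal size they were -9.35, -6.81, -18.5, -0.454 and -11.4, with loxapine and meclizine below their 10th percentiles of -16.9 and -10.7.

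Near the 3′ end of Dgke, 28.2 kb downstream of its first start, a region of 752 bp (chr11:89038257-89039008) lay wholly in non-coding exon. It had a peak in the 5 lists from mutant cells and none in Q7SST. Scores were 30 in Q111SST, 20 in cyproheptadine, 51 in loxapine, 14 in DKI and 32 in meclizine, at percentiles 35.4, 22.0, 54.4, 5.96 and 29.0. It was the one region inside the 9 genes found in every mutant list and not in Q7SST.

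Dgkq was the strongest member in the median and was marked at a pair of start groups in all 6 lists. Group 2, which includes the protein-coding Dgkq-201 (chr5:108660811, minus strand), had scores 120 in Q7SST, 127 in Q111SST, 63 in cyproheptadine, 86 in loxapine, 78 in DKI and 158 in meclizine. The percentiles were 82.7, 87.0, 67.8, 74.4, 72.6 and 89.7. Group 1, the non-coding Dgkq-204 (chr5:108669672), stood at 85.3, 85.2, 71.5, 79.0, 76.3 and 87.6. At both groups the vehicle and meclizine lists were high and cyproheptadine, loxapine and DKI low.

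Both Dgkq promoters are shared with Idua, which encodes a lysosomal enzyme and runs in the opposite direction. Its starts lie 213 bp from the start of group 1 and 480 bp from that of group 2, and the peaks covered them in all 6 lists. The Dgkq values are therefore those of a shared promoter, and the part of each gene cannot be told apart. By strongest peak the gene differed from Q111SST by -1.69 points in Q7SST, -15.5 in cyproheptadine, -8.00 in loxapine, -10.7 in DKI and 2.64 in meclizine, all inside the 10th to 90th percentile span of all genes in their lists. Cyproheptadine alone, at -14.2 with equal list sizes, lay just below the 10th percentile of -14.1. The strongest peak was at group 2 in Q111SST and meclizine and at group 1 in the other lists. All differences but that of meclizine therefore set 1 start group against the other. At group 2 alone, Q7SST (82.7), cyproheptadine (67.8), loxapine (74.4) and DKI (72.6) stood further below Q111SST (87.0). At group 1 alone, Q111SST stood at 85.2, closer to those lists. Spans for single start groups were not computed.

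In the DKI list, whose compound is named for the products of these genes, the 6 marked genes moved in both directions. Relative to Q111SST, Dgkd (12.9 points) and Dgka (1.28) stood higher and Dgke (-9.25), Dgkq (-10.7), Dgkz (-14.5) and Dgkh (-21.4) lower. The Dgkq value sets start group 1 in DKI against start group 2 in Q111SST. All genes marked in both lists had a median of -6.57, and Dgkd lay above the span from -23.5 to 4.03 with the other 5 inside it. With equal list sizes the percentiles in DKI and Q111SST were 74.8 and 50.0 for Dgkd, 41.9 and 22.0 for Dgka, 62.7 and 63.2 for Dgke, 76.3 and 83.0 for Dgkq, 64.1 and 71.9 for Dgkz, and 34.8 and 42.5 for Dgkh. The differences were then 24.9 points for Dgkd, 19.9 for Dgka, -0.454 for Dgke, -6.63 for Dgkq, -7.82 for Dgkz and -7.72 for Dgkh, beside a median of -1.84 over all genes. Each gene kept its direction, and Dgkd and Dgka lay above the 90th percentile of all genes (10.9). The Dgkd value in DKI was that of a peak of 229 bp upstream of the start, and the other peak of that pair stood at 56.8 in the full list. Neither rise was particular to DKI. Above their 90th percentiles at equal sizes were also Dgka in cyproheptadine (19.4) and loxapine (19.0), and Dgkd in Q7SST (23.0) and loxapine (8.16). Dgka in meclizine (-9.48) and Dgkd in cyproheptadine (8.79) and meclizine (3.12) were not.

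Widths of the strongest peaks were set beside those of all marked genes, whose medians ran from 1461 bp (DKI) to 1795 bp (Q111SST). Dgke (median 2368 bp over the lists), Dgkh (2282 bp) and Dgkd (2010 bp) were wider, and Dgka (756 bp) and Dgkq (1391 bp) narrower. Dgkz had a median of 1517 bp. Merging peaks within 1 kb closed the gap at Dgkd, which then measured 1962 bp in cyproheptadine and 1914 bp in DKI, and that at Dgkh in loxapine, which measured 2482 bp.

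Promoter composition was compared over 15 windows of RefSeq that matched the 9 genes on GRCm38, from 250 bases before to 50 after a RefSeq start. Over 21263 such windows of protein-coding genes the median GC content was 56.3%, the median ratio of observed to expected CpG 0.567, and 46.2% held a GC box and 12.6% the TATA motif. The windows at starts marked in all 6 lists ran from 58.7% GC (Dgkq) to 77.7% (Dgkz), with a CpG ratio of 0.619 (Dgka) to 1.01 (Dgkh), and all held at least 2 GC boxes. The Dgkb window had 46.3% GC, a ratio of 0.187 and 0 GC boxes, and the Dgki window 62.3%, 0.569 and 0. The unmarked Dgkg window, at 65.0% GC, a ratio of 0.708 and 1 GC box, was nearer to the marked windows than to Dgkb. Only 1 window of the 15, an internal Dgka start without a mark, held the TATA motif. Its 60.7% GC and 2 GC boxes lay within the range of the marked windows, and its CpG ratio of 0.471 lay below it. The Dgkz group 4 window, marked in Q7SST only, had 61.7% GC, a ratio of 0.362 and 1 GC box.

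**Figure D4:**
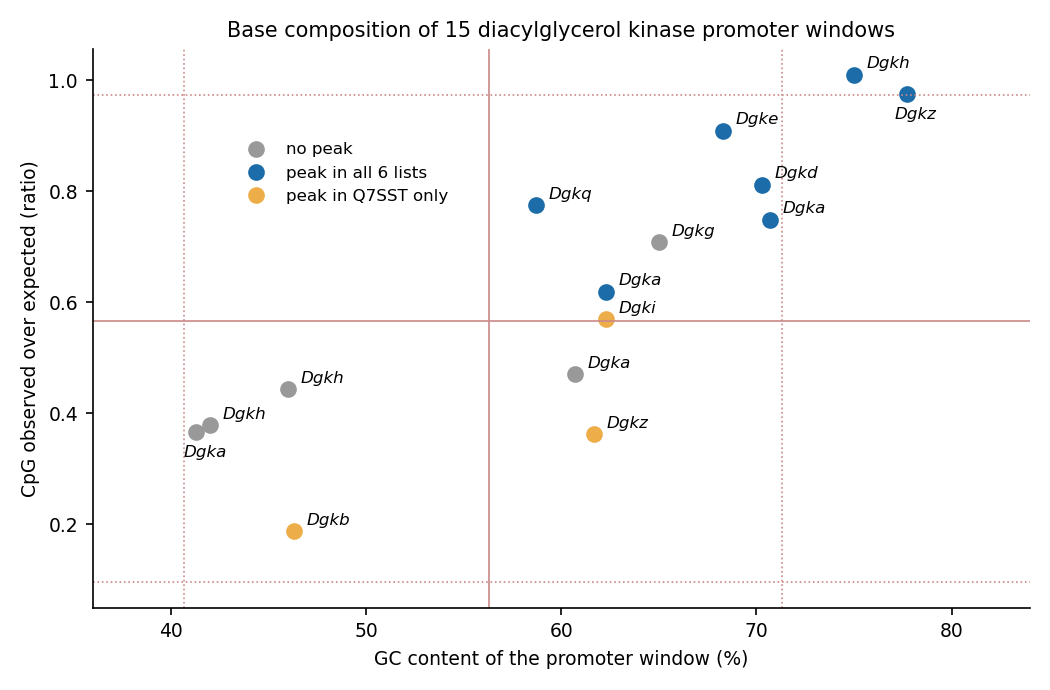
GC content (x axis, %) and ratio of observed to expected CpG (y axis) of 15 promoter windows of the 9 genes, coloured by the lists with a peak within 1 kb of the RefSeq start. Solid lines are the medians of all protein-coding promoter windows and dotted lines their 10th and 90th percentiles. The windows marked in all 6 lists lie above both medians, and Dgkb, at 46.3% and 0.187, lies below both. Above both medians are also the unmarked Dgkg window (65.0%, 0.708) and, narrowly, the Dgki window marked in Q7SST only (62.3%, 0.569).

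The other genes of the pathway were marked more often than all protein-coding genes, of which 55.4% to 59.9% were marked in a list. Of 53 other genes of diacylglycerol metabolism and signalling, 46 were marked in Q7SST, 45 in Q111SST, 41 in cyproheptadine, 44 in loxapine, 42 in DKI and 45 in meclizine. Over the 6 lists, 39 were marked in all, 5 in none and 9 in some, where 53.5% of all protein-coding genes were marked in all and 37.0% in none. By role, the set of other users held 9 enzymes that use diacylglycerol, phosphatidic acid or a lipid made from them (such as Dagla and Dgat1). All 9 were marked in all 6 lists. So were 15 of 20 makers of diacylglycerol or phosphatidic acid (phospholipases, lipins and lipid phosphatases), 11 of 19 proteins bound by diacylglycerol and 4 of 5 relatives with the catalytic domain.

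The 9 genes whose mark differed between lists were mostly weak. Rasgrp2, a diacylglycerol-bound activator of Rap and Ras proteins, was marked in Q7SST only at percentile 65.5, and so were the phospholipase C genes Plcb4 (56.1) and Plcd4 (48.2). Unc13c, a vesicle priming factor, and Chn2, a Rac inactivator, showed the opposite pattern, marked in the 5 mutant lists at 14.0 to 46.7 and at 10.1 to 40.1. Cerkl was unmarked with cyproheptadine alone. Rasgrp1 and Prkch were unmarked with cyproheptadine and DKI, as was Plcb1, and Prkch also with loxapine. No gene of the 53 was marked in a compound list and in neither vehicle list.

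**Figure D5:**
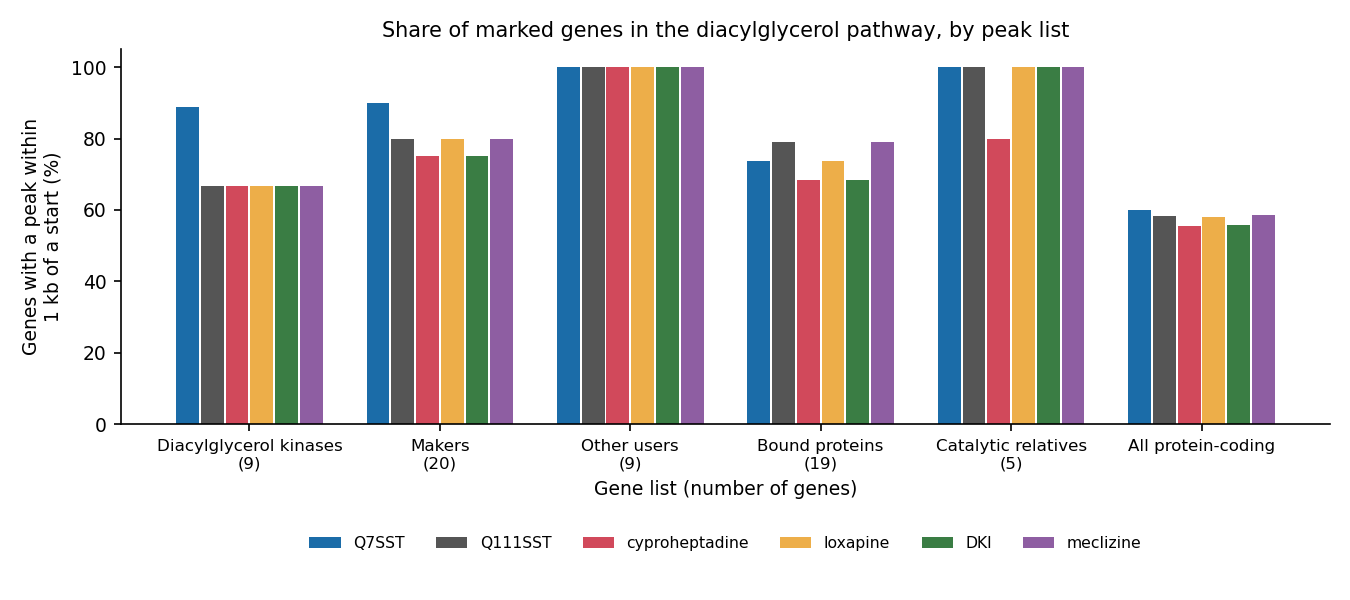
Percentage of genes with a peak within 1 kb of a start (y axis) in the diacylglycerol kinase family, in 4 sets of other genes of the pathway and in all protein-coding genes (x axis, number of genes in brackets), 1 bar per peak list. Diacylglycerol kinases reach 8 of 9 genes in Q7SST and 6 of 9 in the other lists. The other users (of diacylglycerol, phosphatidic acid or a lipid made from them) reach 9 of 9 in all, and the makers are those of diacylglycerol or phosphatidic acid.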

How the data were processed

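ChIP-Seq libraries of 6 conditions were aligned and peaks called by the authors, whose processing notes name Trimmomatic 0.36, Bowtie2, SAMtools 1.3, MACS2 and mm10 with no role or order. Each line of a deposited list gives a position and an integer score, made by the authors on a scale they do not state. Thresholds, any input control and pooling of replicates are not given in the sources used here, and depth per list is unknown. Groups came from the sample labels. In 0 of 21 chromosomes did a peak pass the end on GRCm38. Peaks were assigned within 1 kb of starts in GENCODE release M21, and percentiles were computed within a list. All 9 members were named, with pathway genes whose mark differed between lists (at most 10), neighbours within 1 kb, and the 5 genes most like the member of widest range. Members and lists were chosen with earlier results of these data known. On simulated peaks the assignment found 200 of 200 planted start groups. Promoter windows came from RefSeq and bases from GRCm38. Python 3.11.15, numpy 2.4.6 and pysam 0.24.0 were used. Alternatives were windows of 0 and 5 kb, a score of at least 47, equal list sizes, coding transcripts alone, merged peaks and starts joined within 100 bp.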

Additional observations from a re-analysis of the deposited data

How the results depend on the processing

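No paired analysis was possible because the labels give 1 list for every condition, and for that reason no list could be left out of a group. Merging peaks within 1 kb changed none of 22 counts of genes and start groups. Shares over all genes stand in brackets. With a peak over the start required, cyproheptadine marked 3 genes (45.4%) and 4 start groups (21.8%) and lost 2 (15.5%), loxapine marked 4 start groups (23.8%) and lost 2 (9.75%), and DKI and meclizine gained 1 each (0.625% and 1.88%). Within 5 kb, start groups marked were 20 in Q7SST (46.5%), 16 in Q111SST (46.4%), 13 in cyproheptadine (42.6%), 14 in loxapine (47.0%), 13 in DKI (42.1%) and 17 in meclizine (45.9%). Q7SST then gained 5 of 24 (7.35%) and lost 1 (8.18%), meclizine gained 2 (2.40%) and lost 1 (3.86%), and 3 were lost in cyproheptadine (10.2%), 3 in DKI (10.3%) and 2 in loxapine (3.35%). At or above the pooled median score, Q7SST marked 5 genes (53.6%) and 6 start groups (29.0%) with 0 gained (3.50%), DKI marked 5 start groups (24.4%), loxapine and meclizine gained 1 each (1.5% and 1.93%), and cyproheptadine lost 0 (14.2%). With equal list sizes Q7SST marked 5 genes (58.1%), gained 0 (3.94%) and lost 1 start group (6.10%), and loxapine lost 1 (5.10%). With starts of protein-coding transcripts alone, cyproheptadine and DKI lost 0 (7.38% and 6.68%). With starts joined within 100 bp, Q7SST marked 19 of 50 start groups (38.8%) and gained 10 of 41 (4.86%). These 10 rest on the same 3 peaks at Dgkb, Dgki and Dgkz. Dgkd, Dgke and Dgkq were marked in every list under all of these settings but one, the peak over the start, where Dgkd was unmarked in cyproheptadine and DKI. With equal list sizes 20 of 35 strength percentiles moved by more than the 5 points allowed. Scores have no stated scale and depth is unknown, so a peak absent from a list was not detected there and may lie under its threshold.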

Other observations

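Dgkk, the X-linked relative of Dgkd and Dgkh (chrX:6779306-6948363), was not among the 9 genes. It had 0 of 2 start groups marked in all 6 lists, and no list had a peak inside the gene.

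Dgka had the widest range of strength over the lists, and the protein-coding genes whose strength was most like it over the 6 lists were D930020B18Rik (mean absolute difference 6.18 percentile points), Igf2bp1 (7.74), Pcgf2 (7.81), Pparg (7.88) and B3gnt3 (7.91). They were picked for this likeness, so a pattern shared with Dgka was fixed by the choice. Their percentiles ran from 18.6 to 52.5 for D930020B18Rik, 13.2 to 59.5 for Igf2bp1, 32.6 to 50.3 for Pcgf2, 29.8 to 61.4 for Pparg and 6.14 to 52.0 for B3gnt3. The points share the 6 lists and their sizes.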
